A study of Mus musculus with 49 samples.

Results

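hnRNPs and SR proteins are the 2 large families of nuclear RNA-binding proteins that set which exons enter a messenger RNA. hnRNPs coat nascent transcripts and often keep splice sites silent, whereas SR proteins bind exonic enhancers through their RNA recognition motifs and recruit U1 and U2AF through an arginine-serine domain. Many members shuttle between nucleus and cytoplasm, and several control their own messenger RNA by including a poison exon that sends the transcript into nonsense-mediated decay. TDP-43, encoded by Tardbp, is itself an hnRNP, and its loss from the nucleus and aggregation in the cytoplasm define most cases of amyotrophic lateral sclerosis.

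The transcripts of both families were examined in neocortex of the rNLS8 mouse, whose neurons accumulate a cytoplasmic human TDP-43 that lacks the nuclear localization signal (hTDP-43ΔNLS). Members were taken by symbol, as every row beginning with Hnrnp or named Srsf plus a number that had at least 10 counts in at least 10 mice. This gave 33 of the 45252 genes in the table, 22 hnRNP and 11 Srsf, and all 33 passed the filter on low counts used for testing 18220 genes. Of the hnRNP rows, Hnrnpa1l2-ps and Hnrnpa1l2-ps2 are copies of Hnrnpa1 with under 2 CPM (read counts scaled to library size) in every mouse. The other 31 are the named family genes, and no row named Srsf8 was analysed here.

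RNA was sequenced from about 30 mg of neocortex of 49 mice with 1 library each, all of mixed background (C57BL/6J x C3H/HeJ). The ctrl PBS group held 17 monogenic mice (10 females, 7 males), which carry 1 of the 2 transgenes (which one is not stated) and therefore lack the pair needed to express hTDP-43ΔNLS. All other mice were bigenic (rNLS8, NEFH-tTA and tetO-hTDP-43ΔNLS), with expression driven in neurons by the NEFH promoter, and comprised 10 that received PBS (TDP-PBS, 4 females, 6 males), 10 immunized with peptides 10 and 12 (TDP10 + 12, 6 females, 4 males) and 12 immunized with peptide 15 (TDP15, 5 females, 7 males). The peptides come from the glycine-rich domain of TDP-43, peptide 15 with its phosphorylated serines. Antigen (40 µg, coupled to ovalbumin) or PBS was given 5 times from 8 weeks of age and 1 time after doxycycline was withdrawn from all mice at 25.5 weeks, and tissue was taken 3 weeks later, at 28.5 weeks. The regimen described in the paper also used a CpG oligonucleotide and the adjuvant Alhydrogel, and in control groups PBS replaced the conjugates. Total counts were 17775738 to 21033608 per mouse, so that 3 counts, set here as a floor, are 0.143 to 0.169 CPM. Such floors cover counting error only.

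All defining markers of neurons and glia were present in the tissue, but several of them differed between TDP-PBS and ctrl PBS. The 8 neuronal markers summed to 7358 to 9056 CPM in ctrl PBS and 5359 to 6595 CPM in TDP-PBS, without overlap, and 5 of the 8 were lower while Rbfox3, Slc17a7 and Gad2 did not pass the test. The 7 microglial markers summed to 210.2 to 253.6 CPM in ctrl PBS and 270.3 to 420.4 CPM in TDP-PBS, and 5 of 7 were higher. In the immunized groups the neuronal sums also stayed below ctrl PBS (5533 to 6570 CPM in TDP10 + 12, 5737 to 6530 CPM in TDP15), whereas the microglial sums reached into its range (214.5 to 374.8 and 223.5 to 550.4 CPM). The sums of 6 astrocyte markers overlapped between groups, with 1 marker higher in TDP-PBS (Gfap, from a mean of 122.5 to 380.9 CPM) and 2 lower (Slc1a2 and Gja1). In bulk tissue, fewer cells of a type and less RNA per cell cannot be told apart, and the part of these shifts in the results that follow was not tested. In 15 mice spread over the 4 groups (4, 3, 4 and 4), markers of olfactory bulb, choroid plexus or pituitary summed to at least 100 CPM or Eomes reached 5 CPM, with sums up to 1584 CPM. Results were therefore also computed without these mice.

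The mouse gene of the targeted protein, Tardbp, was lower in rNLS8 mice. It ranged from 119.5 to 160.2 CPM (median 146.6) in ctrl PBS, 91.8 to 136.6 (median 119.9) in TDP-PBS, 105.6 to 142.0 (median 121.5) in TDP10 + 12 and 103.2 to 135.1 (median 119.0) in TDP15. On the log2 scale, the fold change in TDP-PBS against ctrl PBS was -0.30 ± 0.05 (SE; edgeR quasi-likelihood test, adjusted p = 1.54e-06), although only 5 of 10 TDP-PBS mice lay below every ctrl PBS mouse. Whether reads of the human transgene enter this row is not known.

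In the neocortex of TDP-PBS mice, 19 of the 33 members differed from ctrl PBS, 6 higher and 13 lower, where 43.5% of all genes tested were called (21.9% higher, 21.6% lower). Most members are well expressed, and among the 9917 genes at a mean of 10 CPM or more the called share was 54.1% (25.5% higher, 28.6% lower). The called share was 57.6% of all 33 members (18.2% higher, 39.4% lower). For the 31 family genes, which all have such levels, it was 61.3% (19.4% higher, 41.9% lower). This was somewhat above the share of genes with such levels, with more genes lower and fewer higher, and the difference was not tested. The log2 fold changes of the 33 members ran from -0.52 to 0.58 with a median of -0.03, beside -0.01 for genes at 10 CPM or more. Srsf5, Srsf12 and Hnrnpa3 had the largest changes of all called members. Ranges of TDP-PBS and ctrl PBS mice did not overlap for 3 members (Srsf5, Hnrnpa3 and Srsf11) and for 4.89% of all genes. Both families were thus split in direction, with 4 hnRNP and 2 Srsf genes higher and 8 hnRNP and 5 Srsf genes lower.

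**Figure D1:**
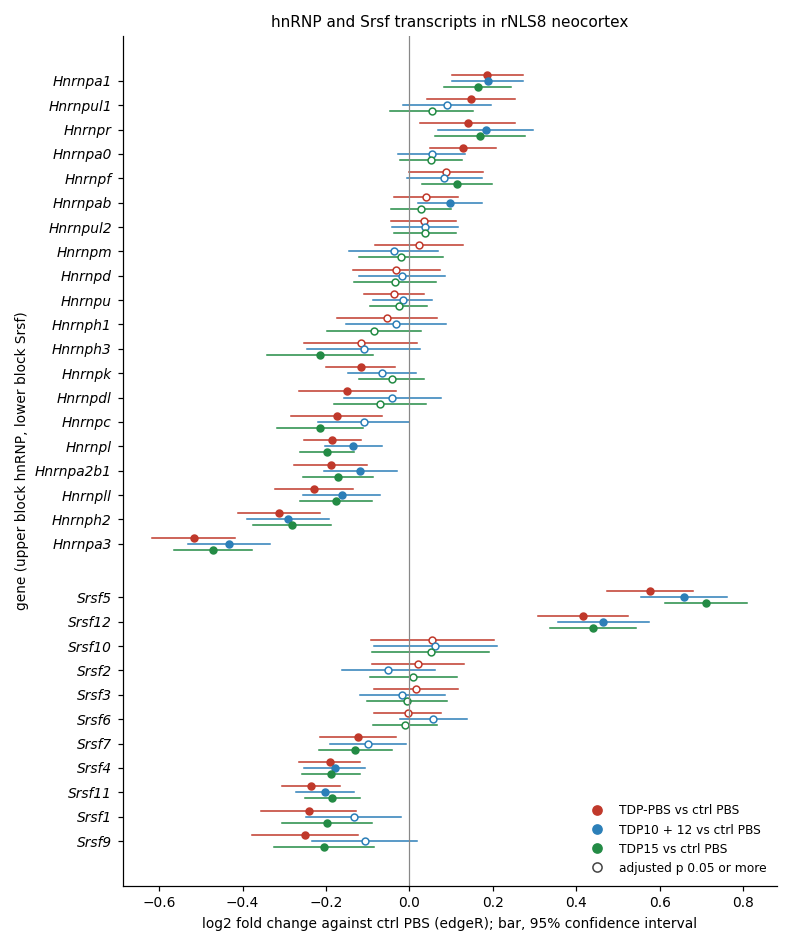
Log2 fold change of the 31 family genes in each rNLS8 group against ctrl PBS (x axis), with the hnRNP genes in the upper block and the Srsf genes in the lower block; points are edgeR estimates, bars 95% confidence intervals and open points genes with an adjusted p of 0.05 or more. Srsf5 and Srsf12 stand to the right and Hnrnpa3 to the left in all 3 groups, and most other members lie within 0.3 of 0.

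Against ctrl PBS, 13 of 33 members were called in TDP10 + 12 mice (6 higher, 7 lower; all genes 40.8%, 20.8% higher and 20% lower) and 17 of 33 in TDP15 mice (5 higher, 12 lower; all genes 46.9%, 23.7% higher and 23.2% lower). Among genes at a mean of 10 CPM or more, 50.4% were called in TDP10 + 12 (23% higher, 27.5% lower) and 57.5% in TDP15 (26.6% higher, 30.8% lower). Of the 31 family genes, 38.7% were called in TDP10 + 12 (16.1% higher, 22.6% lower) and 54.8% in TDP15 (16.1% higher, 38.7% lower). Unlike in TDP-PBS, the called share of the family genes was thus below that of genes with such levels, and this difference was not tested. In both groups the ranges of Srsf5, Srsf12 and Hnrnpa3 did not overlap with ctrl PBS, beside 4.82% and 5.53% of all genes. Since the 3 comparisons share the ctrl PBS mice, their calls are not independent. Side by side, 4 members were higher in all 3 (Hnrnpa1, Hnrnpr, Srsf5 and Srsf12), beside 16.7% of all genes and 20.1% of those at 10 CPM or more. In all 3, 7 members were lower (Hnrnpa2b1, Hnrnpa3, Hnrnph2, Hnrnpl, Hnrnpll, Srsf4 and Srsf11), beside 16.1% of all genes and 23.4% of those at 10 CPM or more. A further 12 were called in 1 or 2 comparisons (22.7% and 21.3%) and 10 in none (44.5% and 35.2%).

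The genes with the smallest p in each direction of each family were Hnrnpa1 and Srsf5 among those higher and Hnrnpa3 and Srsf11 among those lower. Their promoters are shown so that genes that moved apart can be compared. The stretches run from 250 bases before to 50 bases after the start used in the RefSeq promoter entry (GRCm38.p6), 5′ to 3′ on the gene's strand. This start need not be the outer end of the annotated gene, and the stretch of Hnrnpa1 lies inside its gene. Srsf11 had 2 entries, and the one nearest to the annotated start is shown. Capitals mark matches on either strand to 6 motifs, and overlapping matches run together. The first is the GC box with the letters GGGCGG. Another, bound by NF-Y, reads CCAAT. The core promoter element searched was TATAAA. The cAMP response element has the letters TGACGTCA, and the E box reads CACGTG. The last is the core of the interferon-stimulated response element.
Hnrnpa1, chr15:103240147-103240446, + strand: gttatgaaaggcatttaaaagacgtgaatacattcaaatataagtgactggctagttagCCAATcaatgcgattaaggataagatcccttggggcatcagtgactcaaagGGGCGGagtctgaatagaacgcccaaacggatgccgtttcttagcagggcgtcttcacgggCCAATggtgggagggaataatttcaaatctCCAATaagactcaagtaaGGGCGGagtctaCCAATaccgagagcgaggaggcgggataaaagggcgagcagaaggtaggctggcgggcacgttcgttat
Srsf5, chr12:80945249-80945548, + strand: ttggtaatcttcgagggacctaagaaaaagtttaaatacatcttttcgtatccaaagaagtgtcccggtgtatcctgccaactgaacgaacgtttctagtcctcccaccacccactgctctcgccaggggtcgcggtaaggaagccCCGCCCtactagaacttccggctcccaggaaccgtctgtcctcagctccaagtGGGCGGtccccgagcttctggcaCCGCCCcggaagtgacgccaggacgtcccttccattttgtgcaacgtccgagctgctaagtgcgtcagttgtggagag
Hnrnpa3, chr2:75659009-75659308, + strand: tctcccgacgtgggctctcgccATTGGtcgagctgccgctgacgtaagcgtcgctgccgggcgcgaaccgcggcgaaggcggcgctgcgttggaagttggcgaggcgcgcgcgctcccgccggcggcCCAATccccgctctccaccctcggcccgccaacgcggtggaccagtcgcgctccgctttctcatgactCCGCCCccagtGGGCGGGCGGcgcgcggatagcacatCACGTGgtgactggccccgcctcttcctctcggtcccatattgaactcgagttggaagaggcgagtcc
Srsf11, chr3:158036557-158036856, - strand: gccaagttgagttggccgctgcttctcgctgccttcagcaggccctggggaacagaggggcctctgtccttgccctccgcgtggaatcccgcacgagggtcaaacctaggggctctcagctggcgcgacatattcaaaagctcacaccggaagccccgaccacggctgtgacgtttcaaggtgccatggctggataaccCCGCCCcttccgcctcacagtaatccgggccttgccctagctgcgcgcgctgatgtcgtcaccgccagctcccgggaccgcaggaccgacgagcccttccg

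All 4 stretches held GGGCGG, with 2 matches in Hnrnpa1, 3 in Srsf5, 3 in Hnrnpa3 and 1 in Srsf11, so that this motif did not separate genes that rose from genes that fell. CCAAT was found 4 times in Hnrnpa1 and 2 times in Hnrnpa3, and not in the Srsf stretches. CACGTG was found in Hnrnpa3 alone. Of 30 members with an entry in the RefSeq promoter table, 76.7% held GGGCGG and 56.7% CCAAT, beside 35.7% and 37.4% of the 32851 promoters of the same length. CACGTG was in 13.3% of members and 7.15% of all promoters, and TATAAA in 16.7% and 13.6%. TGACGTCA and the interferon-stimulated response element core were in 0 of the 30 stretches and in 1.79% and 3.44% of all. Members' promoters had a median GC content of 66.7%, beside 52.7% for all promoters. The set of all promoters was not limited to genes expressed in this tissue. No share was computed for promoters of genes at the members' level, so these values do not show that a motif marks the 2 families. Of the members with a promoter, GGGCGG was in 6 of 6 higher and 9 of 12 lower genes and CCAAT in 4 of 6 and 7 of 12. These letter matches are descriptions, not evidence of binding.

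The hnRNP A/B genes encode the most abundant class of hnRNPs, with 2 RNA recognition motifs and a glycine-rich prion-like domain related to that of TDP-43. They divided by direction. Hnrnpa1, a splicing repressor that is mutated in rare families with motor neuron disease and multisystem proteinopathy, ranged from 69.1 to 92.0 CPM (median 79.1) in ctrl PBS and from 84.1 to 98.7 (median 91.5) in TDP-PBS. It ranged from 74.6 to 100.8 (median 92.4) in TDP10 + 12 and from 80.6 to 97.1 (median 91.1) in TDP15. The ranges overlapped in every comparison, and 15 of 32 rNLS8 mice lay above the highest ctrl PBS mouse. Hnrnpa1 was higher in TDP-PBS mice, by a log2 fold change of 0.19 ± 0.04 (SE, edgeR adjusted p = 0.000291), with 0.19 ± 0.04 in TDP10 + 12 and 0.16 ± 0.04 in TDP15.

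Hnrnpa3, a close relative of Hnrnpa1 and Hnrnpa2b1 that also binds RNAs carried in granules along neurites, showed the deepest fall of all members. It lay between 90.9 and 122.9 CPM (median 102.7) in ctrl PBS, 58.6 and 82.1 (median 75.5) in TDP-PBS, 71.6 and 88.1 (median 76.2) in TDP10 + 12 and 63.7 and 86.8 (median 76.1) in TDP15. Every one of the 32 rNLS8 mice was below every ctrl PBS mouse. Against ctrl PBS, the log2 fold change was -0.52 ± 0.05 in TDP-PBS (SE, edgeR adjusted p = 1.47e-12), -0.43 ± 0.05 in TDP10 + 12 and -0.47 ± 0.05 in TDP15.

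Hnrnpa3 is also the member with the most near copies, 28 annotated genes or pseudogenes with at least 95% identity over 200 bases, and reads from these cannot be assigned with certainty. A stretch of 1 read length is shown to illustrate this, from coding exon 2 of 11 of Hnrnpa3 and from the processed pseudogene Gm11847 (GENCODE M21, GRCm38.p6). Both stretches are the same at all 100 bases, so that no capital marks a difference.
Hnrnpa3, chr2:75661466-75661565, + strand: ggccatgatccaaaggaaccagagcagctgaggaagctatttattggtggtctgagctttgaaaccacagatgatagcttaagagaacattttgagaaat
Gm11847, chr4:12232905-12233004, + strand: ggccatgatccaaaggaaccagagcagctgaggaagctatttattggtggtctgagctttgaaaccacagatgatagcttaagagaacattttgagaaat

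Of the 100-base windows of the longest coding transcript of Hnrnpa3, 27.5% occur unchanged in an annotated transcript of another gene, beside 42.2% for Hnrnpa1 and 43.5% for Hnrnpf. The share was 27.9% for Hnrnpm, 25.3% for Hnrnpk, 20.7% for Srsf3 and 17.9% for Srsf5. It was under 5% for 21 of the 31 members with a coding transcript. The near copies of Hnrnpk were not matched to rows of the count table. The windows stand for single reads, and a mate of the pair that falls outside a shared stretch was not considered. Of the 28 near copies, 13 were matched to rows of the count table, and 4 of these passed the filter on low counts. All 4 were lower in TDP-PBS. Gm11847 was at 69.4 CPM in ctrl PBS and 52.3 in TDP-PBS (means; log2 fold change -0.41, edgeR adjusted p = 1.82e-06), and Gm12960, Gm6793 and Gm8991 were at -0.27, -0.18 and -0.23. When the counts of Hnrnpa3 and its 13 copies in the table were summed, the parent held 47.1% of them. The sum ranged from 183.1 to 253.7 CPM in ctrl PBS and from 137.3 to 173.1 in TDP-PBS, still without overlap, and the log2 fold change became -0.42 (adjusted p = 8.21e-10). In TDP10 + 12 and TDP15 it was -0.31 and -0.39, and there the highest sums, 198.1 and 190.0 CPM, reached into the ctrl PBS range. For Hnrnpa1 the parent held 75.9% of a sum over 8 copies, and the log2 fold change in TDP-PBS was 0.16 (adjusted p = 0.00248) in place of 0.19.

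Hnrnpa2b1, which carries messenger RNAs to dendrites and is a further gene mutated in multisystem proteinopathy, was called lower in all 3 groups, with a log2 fold change of -0.19 ± 0.04 in TDP-PBS. In TDP10 + 12 it was -0.12 ± 0.04, a call lost without the filter on low counts (edgeR adjusted p = 0.0664) and without the mice with markers of other regions (-0.08, edgeR adjusted p = 0.317). Mean levels were 115.0 ± 7.93 CPM in ctrl PBS (SD, n = 17) and 100.9 ± 9.97 in TDP-PBS (SD, n = 10), and the ranges overlapped. Hnrnpa0 ranged from 34.8 to 41.5 CPM (median 36.8) in ctrl PBS and from 34.7 to 46.0 (median 39.9) in TDP-PBS, with 34.7 to 42.4 in TDP10 + 12 and 33.8 to 42.5 in TDP15. It passed the test in TDP-PBS alone (log2 fold change 0.13 ± 0.04, edgeR adjusted p = 0.00671), and 4 TDP-PBS mice lay above and 1 below all ctrl PBS mice. The values were 0.05 ± 0.04 in both immunized groups. Hnrnpab was called higher in TDP10 + 12 alone (0.10 ± 0.04, edgeR adjusted p = 0.0345), beside 0.04 ± 0.04 in TDP-PBS and 0.03 ± 0.04 in TDP15. This call was kept under only 8 of 11 alternatives. Without the mice with markers of other regions the value was 0.08 (edgeR adjusted p = 0.18). The 2 Hnrnpa1 copies lay at 0.095 to 1.53 CPM, with the lowest values under the floor of 3 counts. Hnrnpa1l2-ps2 was called higher in TDP10 + 12 (0.65 ± 0.20, edgeR adjusted p = 0.00766), whereas Hnrnpa1l2-ps passed no test.

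**Figure D2:**
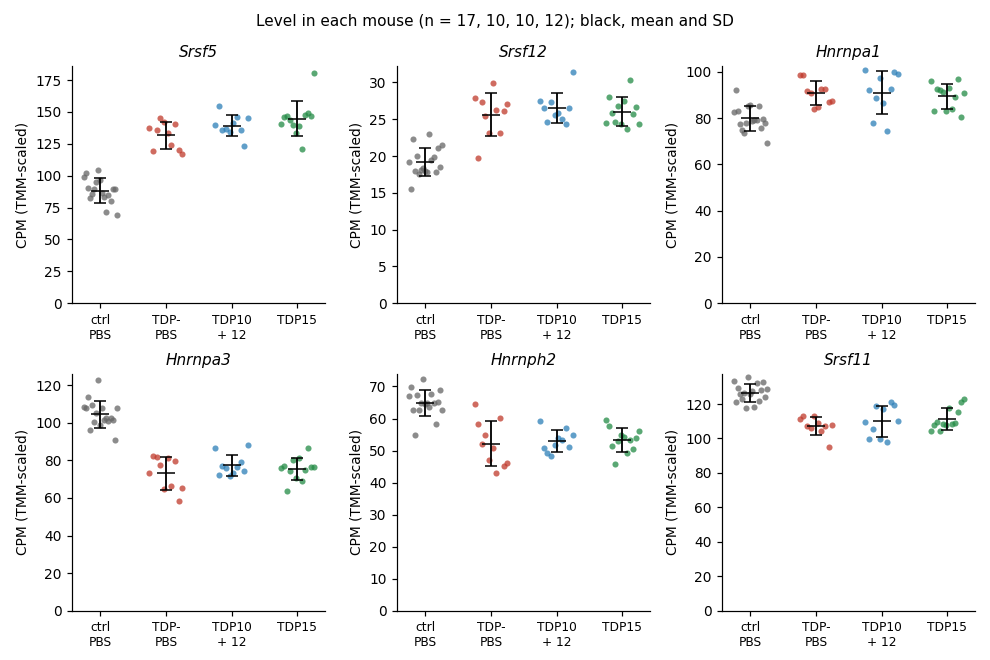
CPM scaled by TMM factors (y axis, from 0) of 6 members in each mouse of the 4 groups (x axis); coloured points are mice, black marks the mean and bars the SD. Every rNLS8 mouse lies above every ctrl PBS mouse for Srsf5 and below every one for Hnrnpa3, whereas Hnrnpa1 and Hnrnph2 overlap between ctrl PBS and each rNLS8 group.

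Among the hnRNP F/H proteins, which bind G-rich tracts around splice sites, the 4 genes differed. Hnrnph2, the X-linked paralog of Hnrnph1 that is altered in a human neurodevelopmental disorder, lay between 55.0 and 72.5 CPM (median 64.9) in ctrl PBS and 43.0 and 64.4 (median 51.3) in TDP-PBS. The immunized groups lay between 48.4 and 59.2 (TDP10 + 12, median 52.6) and 45.8 and 59.7 (TDP15, median 53.6). Of 32 rNLS8 mice, 24 were below the lowest ctrl PBS mouse. The estimated log2 fold change was -0.31 ± 0.05 in TDP-PBS (SE, edgeR adjusted p = 5.81e-07), -0.29 ± 0.05 in TDP10 + 12 and -0.28 ± 0.05 in TDP15.

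Its close relative Hnrnph1 passed no test, with -0.05 ± 0.06 in TDP-PBS and a 95% confidence interval from -0.17 to 0.07. By edgeR, Hnrnph3 was called lower in TDP15 alone (-0.21 ± 0.06, edgeR adjusted p = 0.0046), with -0.12 ± 0.07 in TDP-PBS and -0.11 ± 0.07 in TDP10 + 12. With limma-voom it was also called in TDP-PBS (-0.20, limma adjusted p = 0.00735). Hnrnpf was called higher in TDP15 alone (0.11 ± 0.04, edgeR adjusted p = 0.0227), beside 0.09 ± 0.04 and 0.08 ± 0.04 in the other groups. That a call was made in one group and not in another does not show that the groups differ, and no member differed between rNLS8 groups. Hnrnpf held 58.5% of the counts of the sum with its 3 copies in the table.

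The hnRNP L pair binds CA repeats, and Hnrnpll is known for the switch of CD45 exons in lymphocytes. Both were lower in all 3 groups. Hnrnpl ranged from 162.0 to 193.3 CPM (median 171.9) in ctrl PBS, 138.8 to 166.4 (median 153.1) in TDP-PBS, 140.5 to 171.2 (median 160.1) in TDP10 + 12 and 134.1 to 167.7 (median 152.1) in TDP15. This put 9 of 10 TDP-PBS mice below all ctrl PBS mice. Relative to ctrl PBS, the log2 fold change was -0.19 ± 0.03 in TDP-PBS (SE, edgeR adjusted p = 1.35e-05), -0.13 ± 0.03 in TDP10 + 12 and -0.20 ± 0.03 in TDP15.

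Hnrnpll was at 26.3 to 34.8 CPM (median 29.4) in ctrl PBS, 22.2 to 28.5 (median 24.9) in TDP-PBS, 24.0 to 29.3 (median 26.1) in TDP10 + 12 and 22.0 to 29.2 (median 26.2) in TDP15. With 8 of 10 TDP-PBS mice below every ctrl PBS mouse, its log2 fold change was -0.23 ± 0.05 (SE, edgeR adjusted p = 5.64e-05). It was -0.16 ± 0.05 in TDP10 + 12 and -0.18 ± 0.04 in TDP15.

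Higher in all 3 groups was Hnrnpr, a relative of Syncrip that binds the Smn protein and carries actin messenger RNA into motor axons. It ranged from 29.9 to 45.8 CPM (median 39.1) in ctrl PBS, 35.0 to 48.1 (median 42.5) in TDP-PBS, 39.7 to 49.1 (median 43.2) in TDP10 + 12 and 37.8 to 50.6 (median 43.6) in TDP15, overlapping throughout. On the log2 scale, the fold change was 0.14 ± 0.06 in TDP-PBS (SE, edgeR adjusted p = 0.04), 0.18 ± 0.06 in TDP10 + 12 and 0.17 ± 0.05 in TDP15, and the call in TDP-PBS was lost under 5 of 11 alternatives, with adjusted p up to 0.0686. Hnrnpul1, a DNA and RNA binding relative of Hnrnpu, ranged from 170.6 to 235.8 CPM (median 194.4) in ctrl PBS and 194.5 to 243.7 (median 209.4) in TDP-PBS. It ranged from 187.3 to 246.3 (median 201.5) in TDP10 + 12 and 172.9 to 240.1 (median 199.3) in TDP15. It was called higher in TDP-PBS alone (0.15 ± 0.05, edgeR adjusted p = 0.018), with 0.09 ± 0.05 and 0.05 ± 0.05 in the immunized groups.

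Of the remaining hnRNPs, Hnrnpc, which in human cells keeps Alu elements from becoming exons, was lower in TDP-PBS (-0.17 ± 0.05) and TDP15 (-0.21 ± 0.05) and at -0.11 ± 0.05 in TDP10 + 12, where limma-voom alone of the alternatives called it (adjusted p = 0.0305). Hnrnpk, a poly(C) binding protein, and Hnrnpdl, a relative of Hnrnpd, were called lower in TDP-PBS alone, by -0.12 ± 0.04 and -0.15 ± 0.06. Hnrnpd (AUF1, which binds AU-rich elements), Hnrnpm, Hnrnpu and Hnrnpul2 passed no test against ctrl PBS in any group. For Hnrnpu, the scaffold protein with the highest level of all members, the 95% confidence interval in TDP-PBS was -0.11 to 0.03.

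SR proteins moved in both directions as well, and the SR family held the largest rise of all members. Srsf5, an SR protein with 2 RNA recognition motifs whose transcript is known to respond to growth signals, ranged from 69.5 to 104.5 CPM (median 89.3) in ctrl PBS. It ranged from 117.4 to 145.5 (median 135.0) in TDP-PBS, 123.0 to 154.7 (median 138.5) in TDP10 + 12 and 120.9 to 180.2 (median 145.1) in TDP15. All 32 rNLS8 mice were above all ctrl PBS mice. Against ctrl PBS, the log2 fold change was 0.58 ± 0.05 in TDP-PBS (SE, edgeR adjusted p = 2.33e-13), 0.66 ± 0.05 in TDP10 + 12 and 0.71 ± 0.05 in TDP15. By p it was rank 246 of 18220 genes in TDP-PBS, and Hnrnpa3 was rank 322.

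Srsf5 has 1 near copy, the processed pseudogene Gm12966. In the first 100 coding bases of Srsf5 (exon 2 of 8) and the matching stretch of the copy, shown because a read can fall in either, 1 base differs and is in capitals.
Srsf5, chr12:80946595-80946694, + strand: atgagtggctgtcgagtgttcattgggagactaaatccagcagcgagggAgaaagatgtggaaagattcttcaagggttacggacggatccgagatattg
Gm12966, chr4:129899093-129899192, + strand: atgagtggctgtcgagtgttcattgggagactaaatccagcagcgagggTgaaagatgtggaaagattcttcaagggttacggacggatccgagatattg
The copy rose along with the gene, from 4.72 CPM in ctrl PBS to 7.74 in TDP-PBS (means; log2 fold change 0.71, edgeR adjusted p = 1.68e-07). Srsf5 held 94.4% of the summed counts, and the sum gave a log2 fold change of 0.58 in TDP-PBS, 0.67 in TDP10 + 12 and 0.73 in TDP15.

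Srsf12, also called SRrp35, is an SR-like protein that antagonizes SR proteins in splice site choice, and it was the other Srsf gene that rose. Its levels were 15.5 to 23.0 CPM (median 18.5) in ctrl PBS, 19.7 to 30.0 (median 26.2) in TDP-PBS, 24.4 to 31.4 (median 26.2) in TDP10 + 12 and 23.7 to 30.3 (median 25.8) in TDP15. Of 32 rNLS8 mice, 31 lay above all ctrl PBS mice, and the exception was a TDP-PBS mouse. The estimated log2 fold change was 0.42 ± 0.05 in TDP-PBS (SE, edgeR adjusted p = 8.65e-09), 0.47 ± 0.05 in TDP10 + 12 and 0.44 ± 0.05 in TDP15. Its closest relative Srsf10, a splicing repressor that becomes active when dephosphorylated, passed no test (0.06 ± 0.07 in TDP-PBS, 95% confidence interval -0.09 to 0.20). Srsf12 had no window of 100 bases shared with another annotated transcript.

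Lower in all 3 groups were Srsf11 and Srsf4. Srsf11, an arginine-serine protein without the usual SR protein architecture that has been linked to neuronal microexons, lay between 117.8 and 135.5 CPM (median 126.3) in ctrl PBS and 95.2 and 112.9 (median 107.8) in TDP-PBS, without overlap. In TDP10 + 12 it lay between 98.0 and 121.3 (median 110.0) and in TDP15 between 104.1 and 122.8 (median 108.7), and 27 of 32 rNLS8 mice were below all ctrl PBS mice. Relative to ctrl PBS, the log2 fold change was -0.24 ± 0.03 in TDP-PBS (SE, edgeR adjusted p = 1.55e-07), -0.20 ± 0.03 in TDP10 + 12 and -0.19 ± 0.03 in TDP15.

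Srsf4, a long SR protein, lay between 54.8 and 65.5 CPM (median 60.5) in ctrl PBS, 46.2 and 59.5 (median 52.0) in TDP-PBS, 48.9 and 56.7 (median 53.0) in TDP10 + 12 and 47.4 and 56.7 (median 52.8) in TDP15. Of 32 rNLS8 mice, 25 were below the ctrl PBS range. Its log2 fold change was -0.19 ± 0.04 in TDP-PBS (SE, edgeR adjusted p = 2.06e-05), -0.18 ± 0.04 in TDP10 + 12 and -0.19 ± 0.03 in TDP15. The opposite-strand transcript Gm12992 overlaps 1532 exonic bases of Srsf4, and whether counting used strand is not stated.

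Srsf1, the founding SR protein ASF/SF2, was at 142.7 to 215.6 CPM (median 173.2) in ctrl PBS, 121.9 to 173.6 (median 147.3) in TDP-PBS, 130.8 to 186.7 (median 162.6) in TDP10 + 12 and 129.6 to 166.3 (median 154.4) in TDP15. The groups overlapped widely. It was called lower in TDP-PBS (-0.24 ± 0.06, edgeR adjusted p = 0.000448) and TDP15 (-0.20 ± 0.05), and was at -0.13 ± 0.06 in TDP10 + 12 (edgeR adjusted p = 0.0552), where limma-voom (adjusted p = 0.0178) and DESeq2 (adjusted p = 0.0497) called it.

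Srsf9, the short relative of Srsf1, followed the same course. It was at 11.3 to 16.4 CPM (median 13.2) in ctrl PBS, 9.19 to 14.5 (median 11.2) in TDP-PBS, 11.0 to 13.9 (median 12.5) in TDP10 + 12 and 10.2 to 13.6 (median 11.5) in TDP15. On the log2 scale, the fold change was -0.25 ± 0.06 in TDP-PBS (SE, edgeR adjusted p = 0.00107), -0.11 ± 0.06 in TDP10 + 12 and -0.21 ± 0.06 in TDP15.

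Srsf7, the zinc knuckle SR protein, was lower in TDP-PBS (-0.12 ± 0.05) and TDP15 (-0.13 ± 0.04). Srsf2 (SC35), Srsf3, Srsf6 and Srsf10 passed no test against ctrl PBS in any group. The 95% confidence intervals in TDP-PBS were -0.09 to 0.13 for Srsf2, -0.09 to 0.12 for Srsf3 and -0.08 to 0.08 for Srsf6, so that a change as large as that of Srsf5 lies outside each of them. On the opposite strand, Mettl23 and Mfsd11 overlap exons of Srsf2.

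**Figure D3:**
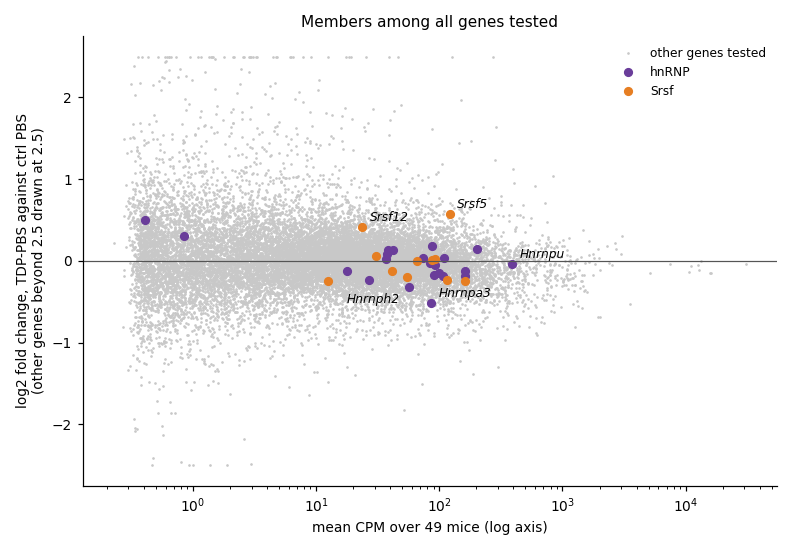
Log2 fold change in TDP-PBS against ctrl PBS (y axis) against mean CPM over the 49 mice (x axis, log scale) for 18220 genes; purple points are hnRNP genes, orange points Srsf genes and grey points the others, with grey points beyond 2.5 drawn at 2.5. Members lie within the cloud of genes of their level, with Srsf5 (0.58) at its upper and Hnrnpa3 (-0.52) at its lower side.

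The total hnRNP and Srsf transcript levels overlapped between groups. Summed over the 22 hnRNP genes, the level was 2055 ± 62.8 CPM in ctrl PBS (SD, n = 17), 1968 ± 71.9 in TDP-PBS (n = 10), 2003 ± 61.5 in TDP10 + 12 (n = 10) and 1966 ± 39.2 in TDP15 (n = 12), with ranges that overlapped. The order is that of scaled values: with library totals in place of TMM scaling, the ctrl PBS mean was 1988 CPM and the TDP15 mean 2013 CPM, so the direction of this sum depends on the scaling. The 11 Srsf genes summed to 799.6 ± 36.1 CPM in ctrl PBS, 793.4 ± 35.7 in TDP-PBS, 815.0 ± 46.7 in TDP10 + 12 and 813.2 ± 24.4 in TDP15. These sums are descriptions and were not tested.

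Compared per kilobase of annotated exon, the level in ctrl PBS was highest for Hnrnpu (34.2 ± 1.96 CPM per kb, SD, n = 17), followed by Srsf2 (31.0 ± 2.64), Srsf1 (30.6 ± 3.19) and Hnrnpl (29.2 ± 1.24). Srsf2, Srsf1 and Hnrnpl differed by less than the SD of Srsf1. Below Hnrnpk (26.0 ± 1.99), Hnrnpab (26.0 ± 1.44) and Hnrnpa1 (25.3 ± 1.73) the values fell to 2.51 ± 0.20 for Hnrnpll and 1.75 ± 0.20 for Hnrnpr, and the 2 Hnrnpa1 copies were under 1. On the same per-kb scale Srsf5 went from 22.1 in ctrl PBS to 33.0 in TDP-PBS and Hnrnpa3 from 19.4 to 13.5. These lengths join the exons of all GENCODE transcripts, and a gene that uses few of them is understated. Spread between mice was small, with a coefficient of variation in ctrl PBS of 4.13% for Srsf11 to 14.7% for Srsf10 among the 31 family genes.

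Several members have transcripts annotated as targets of nonsense-mediated decay. GENCODE lists such a transcript for 9 of 11 Srsf genes and 10 of 20 hnRNP genes, beside 29.8% of the 9338 tested protein-coding genes at a mean of 10 CPM or more. Counts per gene do not separate these forms from the coding ones, so that a change of a gene's count may lie in either. TDP-43 binds UG repeats, and a run of at least 5 TG units was found in the longest transcript of 3 of 31 members (Hnrnpd, Hnrnph2 and Hnrnpr), 9.68%, near the 13% of all tested protein-coding genes. Introns outside these transcripts were not searched, so repeats in the unspliced RNA were not compared.

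The genes around the 2 families were described from lists. Their counts in TDP-PBS stand beside the 43.5% of all genes called (21.9% higher, 21.6% lower) and the 54.1% called at a mean of 10 CPM or more (25.5% higher, 28.6% lower), and no list was tested against these shares. hnRNPs that do not carry the prefix include TDP-43 itself, the PTB and PCBP proteins and HuR, and 9 of 16 changed in TDP-PBS, 2 higher and 7 lower, with a median log2 fold change of -0.07 (median over all genes 0.00). The smallest p belonged to Ralyl, an hnRNP C relative (-0.41), Elavl1, which encodes the stabilizing factor HuR (-0.31), and Tardbp (-0.30). Ralyl was at 39.0 to 56.0 CPM in ctrl PBS and 30.9 to 43.5 in TDP-PBS. Ptbp1, the PTB form of non-neuronal cells, was higher (0.17 ± 0.04, edgeR adjusted p = 0.0012), as was Syncrip (0.21 ± 0.05), while Ptbp2 passed no test.

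SR proteins are phosphorylated by SRPK kinases in the cytoplasm and CLK kinases in the nucleus. Of 9 such kinases, Dyrk1a rose and 5 fell (Srpk2, Srpk3, Clk2, Clk4 and Prpf4b), with a list median of -0.13. The smallest p was that of Srpk3 (-0.45), which was at 4.33 to 7.48 CPM in ctrl PBS and 3.16 to 5.03 in TDP-PBS, followed by Srpk2 (-0.13 ± 0.03) and Prpf4b (-0.18 ± 0.05). Among 19 SR-related proteins, 5 rose and 5 fell. Tra2b, a sequence-specific splicing activator, rose (0.27 ± 0.05, edgeR adjusted p = 1.44e-05), whereas Srrm3, an activator of neuronal microexons, fell (-0.24 ± 0.05, edgeR adjusted p = 1.69e-05), as did its relative Srrm4. Son, a large speckle protein, was higher by 0.18 ± 0.04. The import receptors Tnpo2 and Tnpo3, the latter the carrier of SR proteins into the nucleus, were higher by 0.23 ± 0.05 and 0.15 ± 0.03, and Tnpo1 was at -0.15 ± 0.07 without passing the test.

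In the core spliceosome, 8 of 17 U1, U2 and U2AF proteins changed, 1 higher and 7 lower, and 2 of 8 Sm proteins, 1 in each direction. The smallest p values in the first list were those of Sf3b3 (-0.17 ± 0.03), Sf3a1 (-0.15 ± 0.04) and Snrpa (-0.25 ± 0.06). Snrpd3 was the Sm gene that rose (0.35 ± 0.08) and Snrpe the one that fell (-0.29 ± 0.10), and Snrpg, next by p, was at -0.18 ± 0.10 without passing. Of 15 nonsense-mediated decay factors, 6 were higher and 0 lower. The median of this list was 0.08. Smg6, the endonuclease of the pathway, was higher by 0.22 ± 0.04, Upf3b by 0.31 ± 0.06 and Upf2 by 0.22 ± 0.05 (edgeR adjusted p from 2.72e-06 to 7.06e-05). As background, 21.9% of all genes were called higher in this comparison.

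Of 19 neuronal splicing regulators tested, 3 were higher and 6 lower in TDP-PBS, beside 43.5% of all genes called, and the list median was -0.03. The 3 genes with the smallest p, chosen for that p, did not overlap between TDP-PBS and ctrl PBS, as 4.89% of all genes did not. Rbfox1 ranged from 436.3 to 574.6 CPM in ctrl PBS and 327.8 to 378.4 in TDP-PBS (-0.51 ± 0.04, edgeR adjusted p = 2.97e-14). Nova1 ranged from 59.0 to 84.1 and 36.5 to 57.0 (-0.64 ± 0.06), and Elavl4 from 85.0 to 124.6 and 58.3 to 82.1 (-0.60 ± 0.06). The neuronal marker sum was also lower without overlap, and its part in these values was not tested. Of the cold-inducible RNA-binding proteins, neither Cirbp (-0.17 ± 0.13) nor Rbm3 (-0.12 ± 0.11) passed the test. Among 5 nuclear-retained RNAs, 3 fell and 1 rose: Neat1, the scaffold of paraspeckles, went from 40.3 to 65.1 CPM in ctrl PBS to 65.9 to 156.4 in TDP-PBS (1.03 ± 0.13, edgeR adjusted p = 3.81e-09), without overlap, while Snhg11 (-0.30 ± 0.05) and Miat (-0.39 ± 0.08) were lower.

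**Figure D4:**
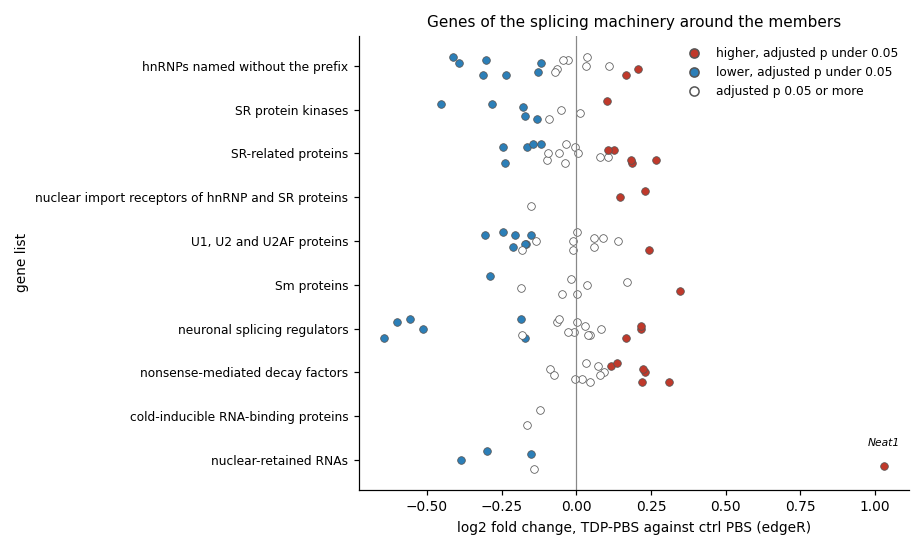
Log2 fold change in TDP-PBS against ctrl PBS (x axis) of each gene of the 10 lists (rows); red points are higher and blue points lower at an adjusted p under 0.05, and white points passed no test. Neuronal splicing regulators hold 4 genes below -0.5 (Nova1, Elavl4, Khdrbs3 and Rbfox1), Neat1 lies at 1.03, and none of the nonsense-mediated decay factors is blue.

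Whether immunization altered the members was asked by comparing the rNLS8 groups. No member was called in TDP10 + 12 against TDP-PBS, TDP15 against TDP-PBS or TDP10 + 12 against TDP15, where 0% of all 18220 genes were called by edgeR. At an unadjusted p under 0.05 there were 1, 1 and 0 members, beside 5.23%, 3.03% and 6.83% of all genes, and DESeq2 and limma-voom with quality weights also called 0 members. The test of any difference between the 3 rNLS8 groups called 0 members and 0 genes by edgeR, with 0 members and 882 genes at an unadjusted p under 0.05, and limma-voom called 0 members as well. The members behind the unadjusted calls, named after their values were seen, were Srsf9 (TDP10 + 12 above TDP-PBS by a log2 value of 0.14 ± 0.07, edgeR adjusted p = 0.953) and Srsf5 (TDP15 above TDP-PBS by 0.13 ± 0.06, edgeR adjusted p = 0.9996).

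For the 31 family genes, the 95% confidence intervals of these differences lay between -0.20 and 0.28 in TDP10 + 12 against TDP-PBS, -0.24 and 0.25 in TDP15 against TDP-PBS, and -0.18 and 0.25 in TDP10 + 12 against TDP15. Differences beyond these bounds were thus outside the interval of every family gene. For Hnrnpa3 the interval was -0.03 to 0.19 in TDP10 + 12 and -0.06 to 0.15 in TDP15 against TDP-PBS, and for Srsf12 -0.07 to 0.17 and -0.09 to 0.14. In all 4 groups together, 18 of 33 members differed in any direction (46.1% of all genes).

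Adjusted for group, 0 of 33 members differed between females and males by edgeR, where 17 genes (0.0933% of those tested) did, and 2 members and 724 genes had an unadjusted p under 0.05. The genotype by sex interaction in the 27 PBS-treated mice called 0 members and 0 genes by edgeR, with 1152 genes and 1 member (Hnrnpc, named after its value was seen) at an unadjusted p under 0.05, 0.0252.

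Leaving out the 15 mice with markers of other regions gave 15 called members in TDP-PBS, 10 in TDP10 + 12 and 16 in TDP15 in place of 19, 13 and 17, and Srsf5, Srsf12, Hnrnpa3, Hnrnph2, Hnrnpl, Hnrnpll, Srsf4 and Srsf11 kept their calls in all 3. The calls that were lost were those of Hnrnpa0, Hnrnpdl, Hnrnpul1 and Srsf7 in TDP-PBS, Hnrnpa2b1, Hnrnpab and Hnrnpa1l2-ps2 in TDP10 + 12, and Srsf7 in TDP15.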

How the data were processed

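Paired-end reads of 100 bp were mapped by the authors to GRCm38.p6 (mm10 in the labels), and the deposited values are unnormalized whole-number counts for each gene in each mouse. The submitters' processing notes name HISAT, HISAT2, Bowtie, Bowtie2 and RSEM without versions or roles. The annotation, the strand setting and the treatment of reads shared by near copies are not given in the sources used here. All 45252 symbols were found in RefSeq, which gave positions and promoters, and exon lengths and transcripts are from GENCODE M21.

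From the counts, filterByExpr by group (10 counts, 15 in total), TMM scaling and a quasi-likelihood fit of all 49 mice without covariates (edgeR 4.0.16, R 4.3.3) gave two-sided tests, Benjamini-Hochberg adjusted over 18220 genes, with 0.05 as threshold. SEs were derived from the F statistic. The sex terms were fitted in the same way. Near copies were found with blastn 2.17.0. Groups and sexes come from the labels. Within groups no 2 libraries were copies, since any pair differed by a chi-squared of at least 7.24 per degree of freedom. Each mouse is a separate animal.

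On simulated counts for TDP-PBS against ctrl PBS (18220 genes, 18045 of them past the filter), the fit recovered 26.6% of 64 changes of 0.2, 76.1% of 67 of 0.6 and 84.8% of 66 of 1 on the log2 scale, with 11 calls in error. Far fewer genes were changed there than the 43.5% called in the data, and they were drawn from genes of all levels. The recovered shares therefore do not carry over to the well expressed members. Alternatives were DESeq2's median-ratio (RLE) factors, upper-quartile factors, no filter, a minimum of 10 counts in each mouse, a covariate for sex, a fit with 2 surrogate variables (sva 3.50.0), the 2 groups compared alone, limma-voom with quality weights (limma 3.58.1) and DESeq2 1.42.0. Summing near copies and leaving out mice with markers of other regions were chosen after seeing the data. Named in full are, per family and direction, up to 4 called members with the smallest p in TDP-PBS, per list the 3 genes with the smallest p, and Tardbp. Other genes were named after their values were seen. Members and lists were chosen with earlier results of these data known. The proteins planned to be shown are not shown, and promoters were used in their place.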

Additional observations from a re-analysis of the deposited data

Results flagged for a closer look

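Of 66 sets of values (33 members in the 2 groups of 10 mice), 2 held a mouse far from the others of its group, where chance gives about 1 in 20. Srsf11 was at 95.2 CPM in 1 TDP-PBS mouse, beside 104 CPM in the nearest and a group median of 108 CPM. Srsf12 was at 31.4 CPM in 1 TDP10 + 12 mouse, beside 27.5 CPM in the nearest and a group median of 26.2 CPM. In both cases the distant mouse lay further from ctrl PBS than the rest of its group, and the next mice were still outside the ctrl PBS range. The groups of 12 and 17 mice were not tested in this way.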

How the results depend on the processing

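Counts of changed members under the 11 alternatives were 15 to 19 (TDP-PBS), 10 to 14 (TDP10 + 12) or 16 to 17 (TDP15) of those tested against ctrl PBS, and were 0 under each of the 9 run between rNLS8 groups. Of the members called, 14 of 19, 10 of 13 and 16 of 17 kept their call under every alternative. Members without a call gained one under some alternative in 1 case in TDP-PBS (Hnrnph3), 3 in TDP10 + 12 (Srsf1, Hnrnpc and Hnrnpa1l2-ps) and 0 in TDP15. In TDP-PBS the other 5 were Hnrnpa0, Hnrnpdl, Hnrnpr, Hnrnpul1 and Srsf7. Over all genes, the comparison of TDP10 + 12 with TDP-PBS went from 0 to 1 without the filter and 2 with limma-voom, and that with TDP15 from 0 to 1 without the filter, 2 in a fit of the 2 groups and 2 with DESeq2. With library totals in place of TMM, the hnRNP sum was 1988 CPM in ctrl PBS and 2013 CPM in TDP15. Signs turned only for members near 0 that passed no test in that comparison. Without mice with markers of other regions these were Srsf2 (-0.0087), Srsf3 (-0.0094) and Srsf6 (0.0075) in TDP-PBS, Hnrnpd (0.022) in TDP10 + 12 and Srsf6 (0.015) in TDP15. With limma-voom they were Srsf3 in TDP-PBS (-0.021) and Srsf2 in TDP15 (-0.0064), and in the fit of 2 groups Srsf3 (0.0051) and Srsf6 (0.000798) in TDP15. The cause was not tested. Scaling by RLE or upper-quartile factors moved the median of all genes in TDP-PBS against ctrl PBS by under 0.01 on the log2 scale. Library totals without TMM were used for the sums alone, and calls of single members under that scaling were not tested. No paired analysis was possible because the labels number each mouse and give no litter. The paper states that littermates were randomized into the cohorts, and relatedness between mice was not modelled. Depth limits the 2 Hnrnpa1 copies, which had at least 10 counts in 16 (Hnrnpa1l2-ps) and 42 (Hnrnpa1l2-ps2) of 49 mice, and counts per gene hold no splicing information.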
